A study of Mus musculus with 2 samples.

Results

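Lactate-only peaks far from genes are H4K12la peaks of the lactate library that had no peak in the control library and no gene nearby. They were selected on their peak calls and position. A member is a peak of the lactate list on chromosomes 1 to 19 or X, farther than 10 kb from every annotated gene, coding or not, with no control peak overlapping it by 1 bp or more. By this rule 3077 of 39727 lactate peaks were members (7.75%), out of 86288 peaks in both lists. H4K12la, histone H4 lactylated at lysine 12, was mapped with CUT&Tag. The cells were Neuro2a, an established neuroblastoma line from mouse, kept in medium with fetal bovine serum. One library came from cells treated with NaCl, which served as the control, and 1 from cells treated with 25 mM lactate. Each group had 1 library, so no test between the groups was possible and no difference below has a replicate check. Every interval is an exact 95% interval for counting error, which also ignores that neighbouring peaks are not independent.

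Lactylation attaches a lactate-derived group to lysine side chains, and histone lactylation is usually discussed as a mark of active promoters and enhancers whose level follows intracellular lactate. Sequence far from genes holds distal enhancers, repeats and long stretches of closed chromatin. Gene deserts in mammals often border developmental regulators and neuronal adhesion genes, and some contain enhancers that act over long distances. CUT&Tag places a transposase beside the antibody-bound mark, and the peak caller reports sites where reads pile up above the local background.

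Each library had a list of its own, and read totals were not given in the labels or lists. The genome-wide background recovered from the peaks was 3.06 overlapping reads for lactate and 2.96 for the control, a difference of 3.43%, which is the only measure of depth used here. The lowest summit pileup of any peak was 11 reads in both lists. At the lowest background, a site with no control peak can therefore still hold control reads below about that level. Where the local background is higher, a call needs more reads, so such a site can hold more. For example, the member at chr15:85684194-85684328 had 36 summit reads over a background of 18.4, and a −log10 q of 1.56. Members were compared with 2 other sets in the same sequence. These were the 2622 gene-distant lactate peaks that overlapped a control peak, called shared here, and the 11681 gene-distant control peaks without a lactate peak, called control-only.

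The share of peaks without a partner was no higher far from genes than elsewhere. Of 5699 lactate peaks farther than 10 kb from genes, 54.0% had no control peak (52.7% to 55.3%). Over all lactate peaks the share was 56.6%, and among those within 10 kb of a gene it was 57.1% (56.6% to 57.6%). Among the 14277 gene-distant control peaks, 81.8% had no lactate peak (81.2% to 82.4%). The members' share is therefore near the background and is no result about distance from genes.

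Members were narrow and low. These values helped to choose the members and are given as a description. Their median width was 166 bp (10% to 90% range 113 to 317 bp), against 258 bp for shared and 174 bp for control-only peaks. The authors' fold enrichment, the summit pileup over the library's own local background with 1 added to each, had a median of 3.32 among members and 3.69 among shared peaks. The median summit held 14 reads in members, 17 in shared and 14 in control-only peaks. In 44.8% of members the summit held 13 reads or fewer, close to the lowest callable pileup. A −log10 q of 5 or more was reached by 205 members, or 6.66% (5.81% to 7.60%), against 33.2% of shared peaks (31.4% to 35.1%). Of all gene-distant lactate peaks with 11 or 12 summit reads, 72.9% had no control peak (70.1% to 75.5%). That share was 49.6% at 16 to 20 reads (47.0% to 52.2%) and 6.83% at 31 reads or more (4.33% to 10.2%). With a −log10 q of 5 or more, 19.1% of gene-distant lactate peaks lacked a control peak (16.7% to 21.5%), beside 20.4% of lactate peaks nearer to genes (19.6% to 21.3%). At matched summit reads the share was lower far from genes than nearer to them. It was 85.9% at 11 or 12 reads (84.5% to 87.3%) and 64.8% at 16 to 20 reads (63.9% to 65.8%) among lactate peaks within 10 kb of a gene. On both sides of the limit the share without a control peak was highest among the weakest peaks.

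Many members stood close to a control peak without touching it. A control peak lay within 1 kb of 635 members, 20.6% (19.2% to 22.1%), and within 10 kb of 40.3% (38.6% to 42.1%). For control-only peaks the shares with a lactate peak at these distances were 5.24% (4.84% to 5.66%) and 14.5% (13.9% to 15.2%). The control list is the longer one, and it holds more gene-distant peaks for a member to be near. The median distance from a member to the nearest control peak was 15.6 kb. Just inside the overlap rule, 3 members directly adjoined a control peak with 0 bases between them, with 18, 12 and 14 summit reads. Just outside it, 3 shared peaks overlapped a control peak by 1 bp, with 16, 16 and 13 reads.

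The plainest contrast was in the distance to genes. The median distance from a member to the nearest gene was 25.3 kb (24.5 to 26.3 kb). It was 30.9 kb for shared peaks (29.5 to 32.3 kb) and 55.2 kb for control-only peaks (53.8 to 56.7 kb). A grid of positions every 1 kb through the sequence farther than 10 kb from genes had a median of 43.0 kb. Members therefore lay nearer to genes, and control-only peaks farther from them, than that sequence did. A gene lay within 20 kb of 38.4% of members (36.7% to 40.2%) and of 18.2% of control-only peaks (17.5% to 18.9%). Only 11.3% of members were farther than 100 kb from a gene (10.2% to 12.4%), against 29.6% of control-only peaks (28.7% to 30.4%). The order was the same among peaks whose own −log10 q was 5 or more. There the medians were 23.0 kb for 205 members (19.1 to 26.3 kb) and 53.8 kb for 549 control-only peaks (50.01 to 61.5 kb).

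Density gives the same pattern per unit of sequence. Between the first and last gene or peak of each chromosome, 942 Mb lay farther than 10 kb from genes, in 14151 gene-free gaps. Over this sequence there were 3.27 members per Mb (3.15 to 3.38), 2.78 shared peaks (2.68 to 2.89) and 12.4 control-only peaks (12.2 to 12.6). At 10 to 20 kb from a gene the members' density was 5.53 per Mb (5.22 to 5.85), from 1182 members in 214 Mb. It was 3.54 per Mb at 20 to 50 kb (3.33 to 3.76), 2.37 at 50 to 100 kb (2.16 to 2.59) and 1.89 at 100 to 200 kb (1.67 to 2.13). At 200 to 400 kb it was 1.27 per Mb (0.999 to 1.59), and beyond 400 kb there were 7 members in 24.4 Mb, or 0.287 per Mb (0.115 to 0.591). Each of these steps was lower than the one before, and no neighbouring intervals overlapped.

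Control-only peaks ran the other way out to 400 kb. Their density was 9.95 per Mb at 10 to 20 kb (9.53 to 10.4) and 17.8 per Mb at 200 to 400 kb (16.7 to 18.9), then 6.03 per Mb beyond 400 kb (5.09 to 7.08). The members thus numbered 55.5% of the control-only peaks at 10 to 20 kb and 7.15% at 200 to 400 kb. Shared peaks went from 3.97 per Mb (3.71 to 4.25) to 1.71 per Mb (1.39 to 2.08) over the same steps. The local background differed with distance as well, but did not fall at every step. It stood above the genome-wide level at 58.6% of members 10 to 20 kb from genes and at 39.2% of those at 100 to 200 kb. At 200 to 400 kb the share was 41.3%, and among the 7 members beyond 400 kb it was 57.1%. The part of the background in the density was not tested. Unsequenced stretches of the assembly were not removed from the lengths, and their part in the low densities beyond 400 kb was not tested.

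**Figure D1:**
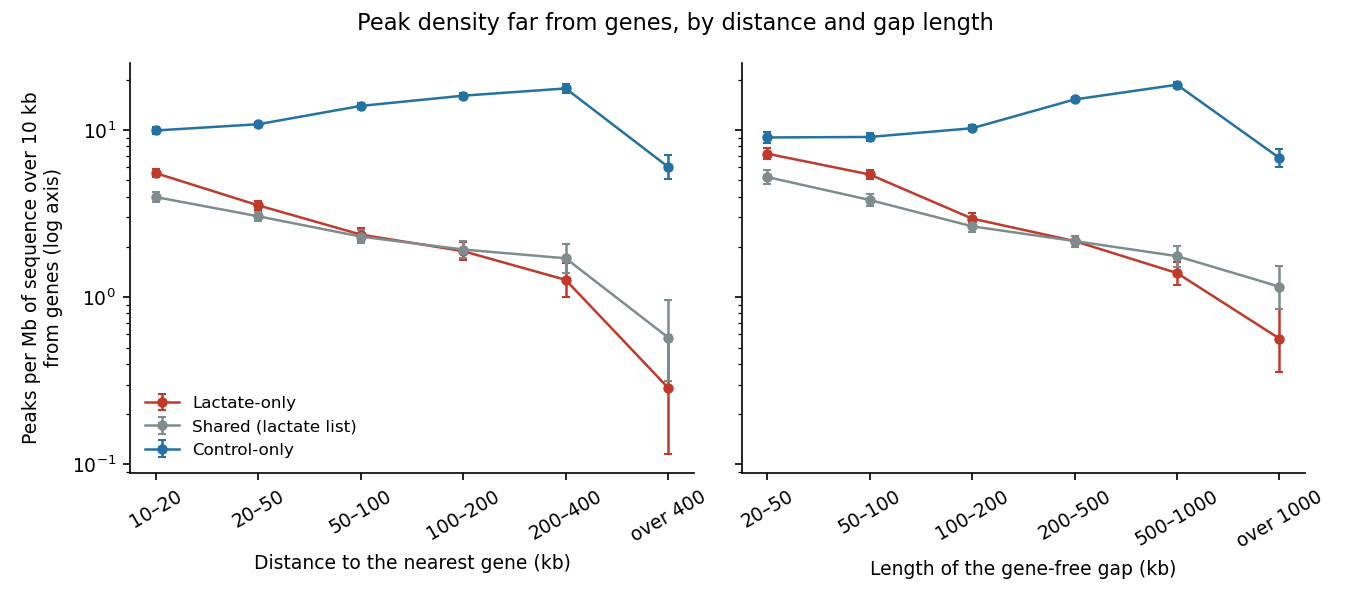
Peaks per Mb of sequence farther than 10 kb from genes (log axis) against distance to the nearest gene (left) and length of the gene-free gap (right), in kb, for lactate-only, shared and control-only peaks, with exact 95% Poisson intervals. The lactate-only density is 5.53 per Mb at 10 to 20 kb and 0.287 per Mb beyond 400 kb, while the control-only density is highest at 200 to 400 kb, at 17.8 per Mb.

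Short gaps between genes held members most densely. Gaps of 20 to 50 kb carried 7.23 members per Mb (6.68 to 7.81), and gaps of 500 to 1000 kb carried 1.40 (1.18 to 1.63). Shared peaks also fell with gap length, from 5.24 per Mb in the short gaps (4.78 to 5.74) to 1.76 in the long ones (1.52 to 2.03). The fall was therefore not particular to members. Control-only peaks had 9.04 per Mb in the short gaps (8.43 to 9.68) and 18.7 in the long ones (17.9 to 19.5). In gaps of 20 to 50 kb the 647 members came to 80.0% of the number of control-only peaks, and in gaps of 500 to 1000 kb to 7.46%. Gaps over 1000 kb, the largest gene deserts, held 23 members in 40.6 Mb, 0.566 per Mb (0.359 to 0.849). Shared peaks there were at 1.16 per Mb (0.850 to 1.54).

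Peaks on either side of the 10 kb limit had similar values. The 3 members nearest to the limit lay 10.004 kb from Olfr225, an odorant receptor gene, 10.008 kb from Ankrd10 and 10.009 kb from Mad1l1, which encodes a spindle checkpoint protein. They had 14, 15 and 22 summit reads and folds of 3.69, 3.54 and 4.02. The 3 lactate-only peaks closest below the limit, at 9.997, 9.992 and 9.992 kb, had 15, 20 and 26 reads and folds of 3.43, 2.65 and 4.22. At the other end, 2 members lay 654 kb and 618 kb from the nearest gene in the desert between the cadherin genes Cdh6 and Cdh9 on chromosome 15. They had 14 and 13 summit reads, and control peaks stood 0.007 kb and 2.91 kb away. The next farthest, on chromosome 1 between Rgs18 and Brinp3, lay 457 kb from a gene, with 12 reads and a control peak 0.243 kb away. All 3 of the most remote members therefore had a control peak within 3 kb.

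Density also differed between chromosomes. The highest was 6.76 members per Mb on chromosome 13 (6.00 to 7.59), followed by 6.25 on chromosome 15 (5.50 to 7.08), 4.97 on chromosome 8 (4.37 to 5.64), 4.47 on chromosome 11 (3.79 to 5.22) and 4.39 on chromosome 10 (3.79 to 5.06). These 5 overlap in part, and the first 2 do not differ beyond their intervals. The lowest was 1.03 per Mb on the X chromosome (0.832 to 1.27), below 1.85 on chromosome 14 (1.48 to 2.28), 2.18 on chromosome 4 (1.81 to 2.60), 2.55 on chromosome 9 (2.05 to 3.13) and 2.57 on chromosome 18 (2.06 to 3.17). The X interval did not overlap those of the other 4. Across the 20 chromosomes, members' density correlated with that of shared peaks at r = 0.937 (Spearman 0.917) and with that of control-only peaks at r = 0.847 (Spearman 0.809). This is a description, since all 3 counts share the sequence and come from the same 2 libraries. On chromosome 6 control-only peaks were dense, at 21.4 per Mb, while members were at 3.62 per Mb (3.104 to 4.19), near the genome's value.

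The local background differed between chromosomes too, but did not follow density throughout. Among the 5 densest it stood above the genome-wide level at 65.4% of members on chromosome 11, 61.9% on 13 and 60.8% on 15. On chromosomes 8 and 10 it did so at 57.1% and 45.0%. Among the 5 of lowest density the shares were 54.1% on chromosome 4, 43.3% on 9 and 41.4% on 18. On the X chromosome and chromosome 14 they were 36.7% and 31.03%. The part of the background in these densities was not tested. Chromosome copy number was not measured here, and its part in these densities was not tested.

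**Figure D2:**
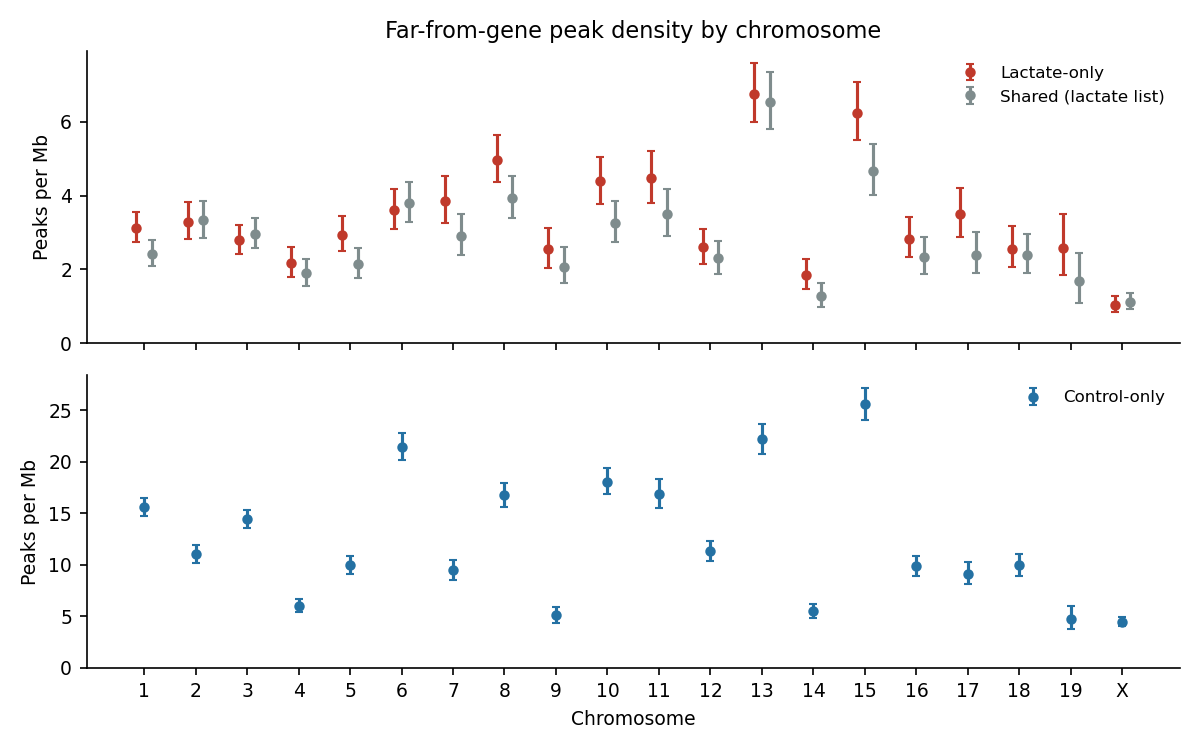
Peaks per Mb of sequence farther than 10 kb from genes on each chromosome, for lactate-only and shared peaks (top) and control-only peaks (bottom), with exact 95% Poisson intervals. Lactate-only density is highest on chromosomes 13 and 15, at 6.76 and 6.25 per Mb, and lowest on the X chromosome, at 1.03 per Mb.

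Members were mostly solitary. The median spacing from one member to the next on the chromosome was 324 kb (291 to 356 kb), beside 353 kb for shared peaks (319 to 393 kb), which are a little fewer, and 31.5 kb for the more numerous control-only peaks (30.3 to 32.6 kb). Spacing ran from 0.142 kb to 12757 kb, and 26.0% of spacings were over 1 Mb (24.5% to 27.6%). Chaining members that lay 10 kb or less apart left 2325 alone, 75.6% of members. There were 322 chains of 2, 34 of 3 or more and 1 of 5 or more. Among control-only peaks 59.7% were alone, with 512 chains of 3 or more. Shared peaks, closer to members in number, were alone in 73.2%. They had 60 chains of 3 or more and 15 of 5 or more, the longest of 18 peaks.

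Close pairs were present at every scale. Spacings of 1 kb or less made up 6.08% of the members' spacings (5.26% to 6.99%), 8.34% of the shared (7.31% to 9.47%) and 5.34% of the control-only (4.94% to 5.77%). Spacings over 5 kb and up to 10 kb made up 3.34% for members (2.73% to 4.04%), a share near the 3.53% over 1 kb and up to 5 kb (2.91% to 4.25%). For control-only peaks the shares in these windows were 11.8% (11.2% to 12.4%) and 6.28% (5.84% to 6.73%). The wider spacing window thus held the larger share among control-only peaks, while the members' shares in the windows did not differ beyond their intervals. Counting every lactate peak, and not members alone, 39.9% of members had another lactate peak within 10 kb (38.1% to 41.6%).

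**Figure D3:**
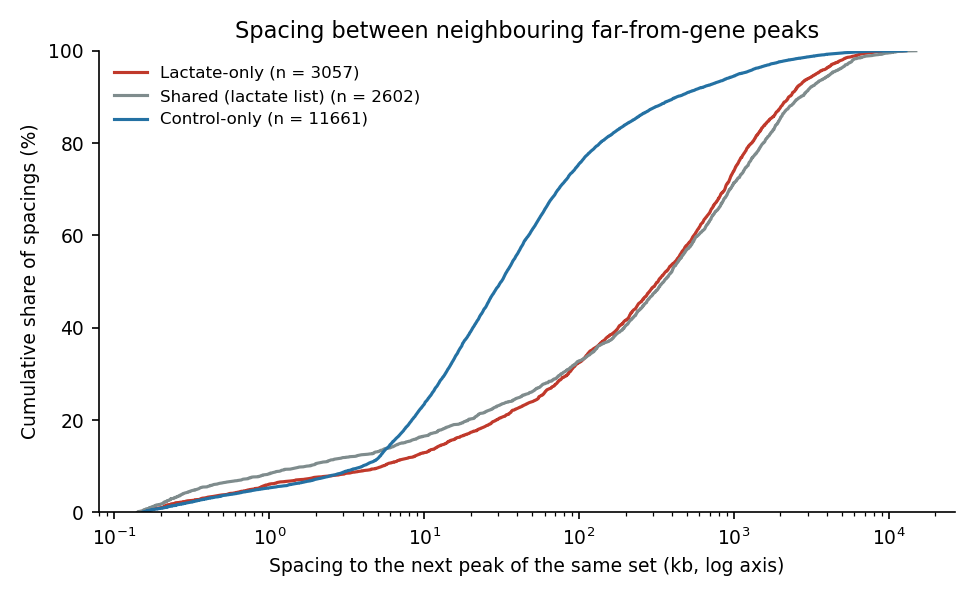
Cumulative share of spacings (%) against the spacing to the next peak of the same set (kb, log axis), for lactate-only, shared and control-only peaks. The lactate-only and shared curves run close together, with medians of 324 and 353 kb, and the control-only curve lies to their left, with a median of 31.5 kb.

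Members were scattered over many gaps. They occurred in 2151 of the 14151 gene-free gaps (15.2%), and 1549 of those gaps held a single member. A further 395 held 2, and 207 held 3 or more. Of the gaps with a member, 45.1% also held a control-only peak, 32.9% also held a shared peak, and 42.6% held neither. Over all 14151 gaps, 24.2% held a control-only peak and 12.5% a shared peak. Gaps were not matched for length, and the part of length in these shares was not tested.

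The gap with most members lay on chromosome 15 at chr15:68341290-68671415 (mm10), between the microRNA gene Mir30d and the small RNA gene Gm25987. Its flanking coding genes are Zfat, which encodes a zinc finger regulator of immune cells, and Khdrbs3, which encodes an RNA-binding protein. It held 11 members with 11 to 26 summit reads, beside 3 shared and 10 control-only peaks. Their median background was 4.62 reads, and control peaks in the same gap had 5.17. Zfat was also the coding gene nearest to most members, 16, a gene singled out after the values were seen.

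The second gap, chr15:85640525-85703772, was short and dense, with 8 members in 43.2 kb of sequence beyond the 10 kb limits. It lies between the noncoding genes D130051D11Rik and Lncppara. The flanking coding genes are Wnt7b, a Wnt ligand, and Ppara, the fatty acid receptor that drives fatty acid oxidation genes. Summits here held 36 to 44 reads, against a 90th percentile of 19 over all members, but folds were low, from 1.91 to 2.52. The median background was 17.8 reads at these members and 7.08 at the 9 control peaks of the gap, and its part in the calls was not tested. Of the 8 members, 6 formed the longest chain of all, 19.9 kb long. The 2 control-only peaks of the gap had lower summits than every member there, as the map of the gaps shows.

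The third gap, chr7:62085311-62297386, has as its flanking coding gene on the higher side Ndn, the imprinted gene for necdin, a neuronal growth suppressor. It held 7 members, 1 control-only peak and no shared peak, with 13 to 21 summit reads. The gap between Lyplal1 and Tgfb2 on chromosome 1, with 6 members and 2 control-only peaks, also held no shared peak. Tgfb2 encodes a transforming growth factor.

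Among the other gaps of the 10, 4 lay on chromosome 13. The gap between Rasa1, a Ras GTPase activator gene, and the pseudogene Gm5666 held 7 members, 7 shared and 10 control-only peaks. The one near Mtrr, methionine synthase reductase, held 6 members beside 9 shared and 18 control-only peaks. The remaining 2 flanked Irx1, an Iroquois homeobox gene: 6 members lay on the Adamts16 side and 6 on the Irx2 side, beside 13 and 15 control-only peaks. Their summits held 11 to 20 and 12 to 24 reads. The last gaps lay between Hace1 and Grik2, a kainate receptor gene, on chromosome 10, and between F2rl3 and Isx on chromosome 8, with 6 members each. In 4 of the 10 gaps, all on chromosome 13, control-only peaks outnumbered members.

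**Figure D4:**
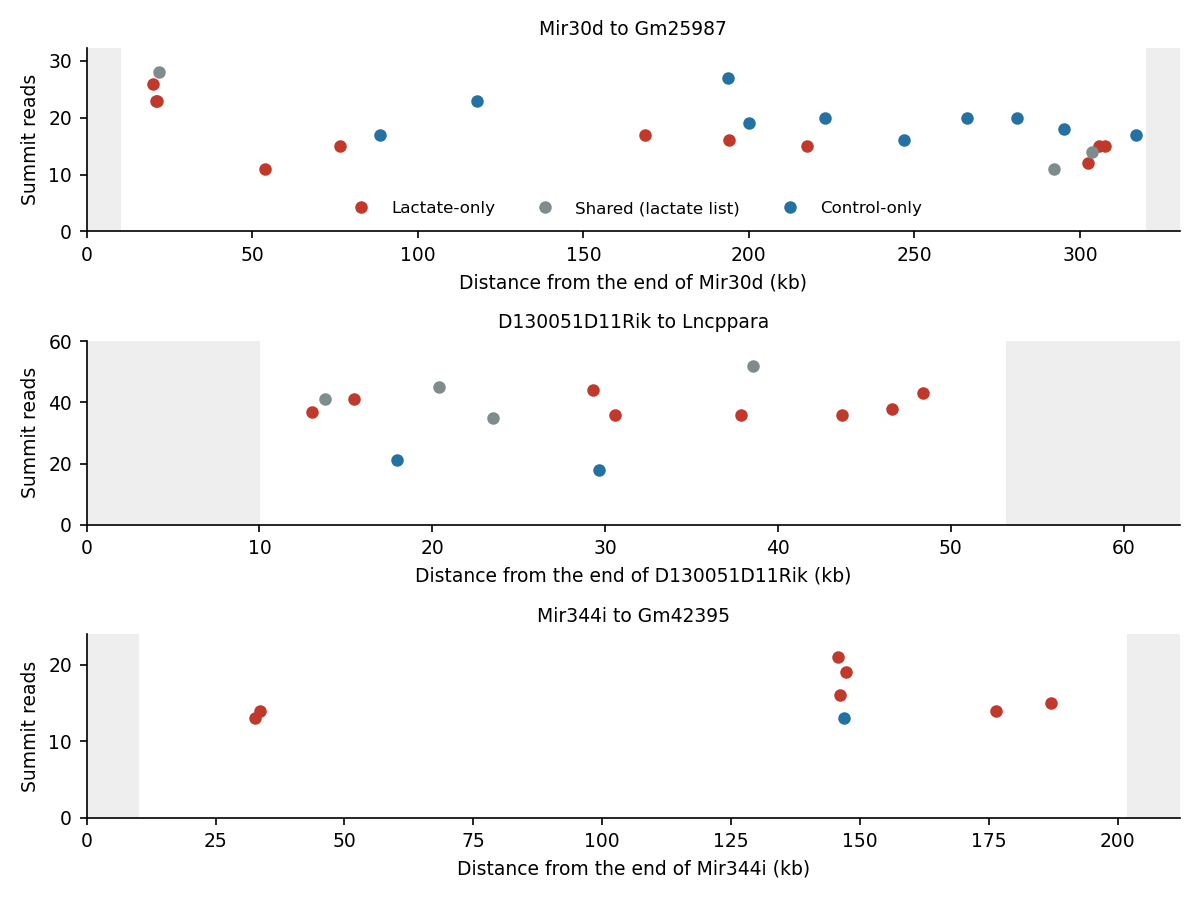
Summit reads of lactate-only, shared and control-only peaks against the distance from the end of the lower-coordinate flanking gene (kb) in the 3 gaps with most members. Grey bands mark the 10 kb beside each flanking gene, and in the middle gap all 8 lactate-only summits hold 36 to 44 reads while both control-only summits are lower.

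The member with the highest fold lay at chr9:90863113-90863527, with a fold of 6.94, a −log10 q of 13.3 and 28 summit reads (18.6 to 40.5). Its nearest gene was the noncoding Gm28703 at 34.3 kb. The nearest coding gene was Zic1, a zinc finger factor of the dorsal neural tube, 495 kb away, and the nearest control peak was 42.7 kb away. The second, chr12:31580891-31581408, had a fold of 6.02 and 25 reads (16.2 to 36.9). It lay 13.9 kb from Bcap29, which encodes an endoplasmic reticulum membrane protein, and 20.8 kb from Slc26a4, the anion exchanger pendrin. The third, chr1:22002335-22002646, with a fold of 5.91 and 23 reads (14.6 to 34.5), lay 39.7 kb from the potassium channel gene Kcnq5 and 283 kb from Rims1, a presynaptic scaffold gene. Next came chr10:65955795-65956098, with a fold of 5.83 and 27 reads (17.8 to 39.3), between Ctnna3, which encodes a catenin, and Reep3. The members near Zic1, Bcap29 and Ctnna3 were the only ones to reach a −log10 q of 10, which is 3 of 3077.

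The other 6 of the 10 had folds from 5.80 to 5.43 and 22 to 24 summit reads. Their nearest coding genes were Nmbr, the neuromedin B receptor, at 409 kb, Lig4, the ligase of DNA end joining, at 23.2 kb, and Myrip, a motor adaptor of secretory granules, at 15.9 kb. The remaining ones were Dync1li1, a subunit of cytoplasmic dynein, at 15.4 kb, Manea, a Golgi mannosidase, at 924 kb, and Dmrta2, a transcription factor of the developing cortex, at 66.9 kb. None of the 10 had a control peak within 6 kb, the closest being 6.84 kb from the member near Kcnq5. The member near Dmrta2, 743 bp wide, was the widest of the 10 and lay 152 kb from Elavl4, a neuronal RNA-binding protein gene.

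A few members lay on a raised background. It was above 10 reads at 33 members, 1.07% (0.739% to 1.503%), against 5.91% of shared (5.04% to 6.88%) and 0.514% of control-only peaks (0.392% to 0.661%). The highest were at chr9:3020235-3020538, with 116 summit reads over a background of 70.0 (fold 1.65), and chr2:98663853-98663986, with 90 reads over 51.9 (fold 1.72). Control peaks lay 0.298 kb and 0.933 kb away. No filter for repeated sequence was applied, and its part in these calls was not tested.

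The genes next to members were of all kinds. The nearest gene was a long noncoding RNA for 34.0% of members (32.3% to 35.7%), protein-coding for 31.6% (29.9% to 33.2%), a pseudogene for 26.6% (25.0% to 28.2%) and a small RNA or other gene for 7.90% (6.97% to 8.91%). Of the grid positions, 29.1%, 24.5%, 36.6% and 9.74% had these kinds nearest. Control-only peaks had a pseudogene nearest in 43.0% (42.1% to 43.9%) and a coding gene in 19.7% (19.01% to 20.5%). Members were thus more often next to coding and long noncoding genes, and less often next to pseudogenes, than both the sequence and the control-only peaks. Shared peaks lay on the same side for coding genes, at 27.9% (26.2% to 29.7%), and pseudogenes, at 33.6% (31.8% to 35.4%). Their share for long noncoding genes, 29.6% (27.9% to 31.4%), was near that of the grid. MicroRNA genes were nearest to 31 members, 1.01%, beside 0.691% of grid positions. The median distance to the nearest coding gene was 67.1 kb for members (63.4 to 73.7 kb) and 102 kb for shared peaks (92.6 to 109 kb). It was 162 kb for the grid and 247 kb for control-only peaks (241 to 254 kb).

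A total of 1871 coding genes were nearest to at least 1 member, 1203 of them to a single one. Peaks at the ends of these genes, within 1 kb of either annotated end, are separate from the members and were not used to choose them. An end peak in the lactate library alone was found at 15.5% of the 1871 genes (13.9% to 17.2%), and the background over all 21627 coding genes was 16.3%. That share is near the background over all coding genes, but only 10265 of them border the sequence far from genes. End peaks in both libraries were found at 34.4% (32.3% to 36.6%), beside 29.0% of all coding genes and 26.3% of the 10265 coding genes that border the sequence far from genes. Genes nearest to shared peaks had nearly the same share, 33.6% (31.2% to 36.0%), an interval that overlaps the members'. Among the 10265 bordering genes, 12.7% had a lactate-only end peak, below the interval for the genes nearest to members. Genes were not matched for the length of sequence beside them. Of the 2185 coding genes nearest to control-only peaks, 7.83% had a lactate-only end peak (6.73% to 9.03%) and 24.4% had end peaks in both (22.6% to 26.3%). Of the 1478 nearest to shared peaks, 10.2% had a lactate-only end peak (8.72% to 11.9%).

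Within 50 kb of a gene of any type, members were denser where the nearest coding gene had an end peak, in either library or both, than where it had none. Beyond 50 kb this was clear only for genes with end peaks in both libraries. Beside a gene here means that it is the nearest coding gene, at any distance, and that distance was not matched between the groups. Within 50 kb of a gene of any type, density was 6.38 per Mb where the nearest coding gene had an end peak in the lactate library alone (5.75 to 7.07). It was 5.94 where both libraries had one (5.54 to 6.36), 4.30 where the control alone had one (3.53 to 5.18) and 3.16 where neither did (2.96 to 3.37). The first and second did not differ beyond their intervals, and both were above the group with a control-only end peak. That group was in turn above the last, so the excess was not confined to genes with a lactate end peak. Control-only peaks showed another order. Their density was 6.56 per Mb beside genes with a lactate-only end peak (5.91 to 7.25) and 23.2 beside genes with a control-only end peak (21.4 to 25.1). Shared peaks were densest beside genes with end peaks in both, at 4.89 per Mb (4.53 to 5.28), although that interval overlapped the one beside genes with a control-only end peak (3.43 to 5.06). Beyond 50 kb from any gene the members' densities were 2.05 (1.61 to 2.57), 2.72 (2.42 to 3.06), 2.17 (1.67 to 2.77) and 1.59 (1.44 to 1.75) in the same order. There the density beside genes with peaks in both libraries was above that beside genes with none. That beside genes with a lactate-only end peak was higher in value than beside genes with none. Its interval overlapped those of the control-only and neither groups, so no order is drawn.

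**Figure D5:**
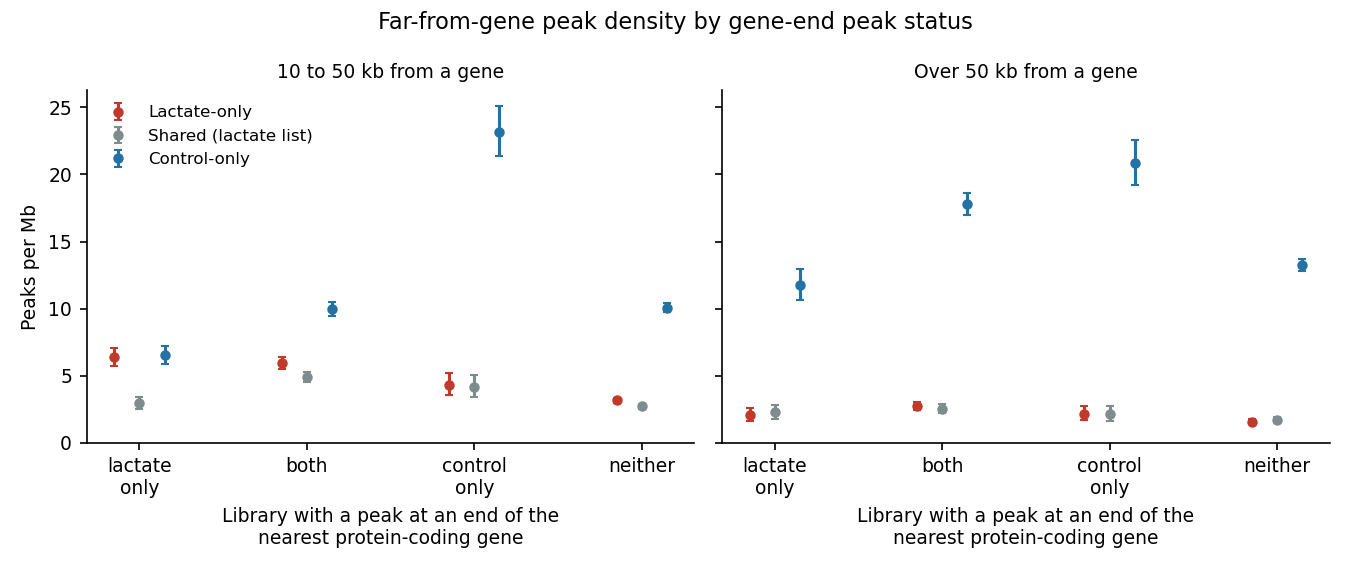
Peaks per Mb of sequence 10 to 50 kb from a gene (left) and over 50 kb from a gene (right), by which library had a peak at an end of the nearest protein-coding gene, with exact 95% Poisson intervals. On the left, lactate-only density is 6.38 per Mb beside genes with a lactate-only end peak and 3.16 beside genes with none, and control-only density is 23.2 beside genes with a control-only end peak.

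Sequences of 3 promoters are shown because their genes flank members named here and a lactate peak overlaps each of them. They are the 250 bases before the annotated start, from RefSeq (GRCm38.p6), 5′ to 3′ on the strand of the gene, with each CG dinucleotide, the site of DNA methylation, in capitals. Dync1li1 (chr9:114688581-114688830, plus strand), which lies 15.4 kb from a member, had 27 CG, a number reached by 11.1% of the 21044 coding promoters in the table. Isl1 (chr13:116309689-116309938, minus strand), a homeobox gene of motor and sensory neurons with 6 members nearest to it, had 33 CG, reached by 5.18%. Rpl11 (chr4:136053394-136053643, minus strand), a ribosomal protein gene with 2 members nearest to it, had 7 CG, reached by 59.2%. CG reads the same on both strands, and its matches are a description only.
Dync1li1: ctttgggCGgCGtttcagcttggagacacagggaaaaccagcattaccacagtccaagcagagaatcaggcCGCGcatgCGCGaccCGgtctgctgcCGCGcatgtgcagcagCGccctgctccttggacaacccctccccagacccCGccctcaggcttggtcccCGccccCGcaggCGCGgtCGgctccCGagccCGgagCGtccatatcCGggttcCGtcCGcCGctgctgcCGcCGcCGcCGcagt
Isl1: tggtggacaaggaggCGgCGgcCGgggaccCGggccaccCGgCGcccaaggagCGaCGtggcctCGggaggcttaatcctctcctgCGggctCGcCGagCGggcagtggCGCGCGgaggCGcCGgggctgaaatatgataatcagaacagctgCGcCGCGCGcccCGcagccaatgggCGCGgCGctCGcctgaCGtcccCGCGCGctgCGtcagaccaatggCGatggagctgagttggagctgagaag
Rpl11: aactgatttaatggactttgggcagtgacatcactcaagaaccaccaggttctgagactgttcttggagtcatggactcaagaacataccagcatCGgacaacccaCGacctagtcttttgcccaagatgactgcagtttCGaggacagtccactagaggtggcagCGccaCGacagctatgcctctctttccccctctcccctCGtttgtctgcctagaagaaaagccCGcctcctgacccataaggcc

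At these promoters both libraries had a peak, with 26 lactate and 14 control summit reads at Dync1li1, 30 and 30 at Isl1, and 40 and 20 at Rpl11. The folds, each over its own library's local background, were 4.69 for lactate and 3.71 for control at Dync1li1. They were 3.66 and 4.55 at Isl1, and 3.77 and 3.07 at Rpl11. Sequences of the members themselves were not analysed here.

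Gene lists differed in how many members their flanks held per Mb. Each list was compared over the sequence to which its genes are the nearest coding gene, and over all coding genes this gave 3.24 members per Mb. The list entries were chosen with earlier results known, and the values describe these 2 libraries. Around 63 synaptic adhesion and cadherin genes, which wire neurons together and border large deserts, there were 89 members in 69.4 Mb, 1.28 per Mb (1.03 to 1.58). Control-only peaks there stood at 17.1 per Mb (16.2 to 18.1), beside 12.3 over all coding genes, and shared peaks at 1.64 per Mb (1.35 to 1.97), beside 2.76. Of the 59 genes of this list with any such sequence, 37 had a member (62.7%), with a median of 1 member per gene. Of the 10265 coding genes with any such sequence, 18.2% had a member, with a median of 0. The other sets had the same contrast, with shared peaks at 76.3% of the 59 genes against 14.4% of the 10265, and control-only peaks at 93.2% against 21.3%. Cdh6 had 5 members, between 647 and 1668 kb away, beside 60 control-only peaks. Cadm2 and Cdh12 had 4 each, beside 16 and 57 control-only peaks.

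Neurotransmitter receptor and channel genes had 62 members, 2.65 per Mb (2.03 to 3.40), and control-only peaks at 25.6 per Mb (23.6 to 27.8). At least 1 member was nearest to 24 of 70 genes of that list (34.3%), beside 18.2% of all coding genes with such sequence. At least 1 shared peak was nearest to 42.9% of the 70, beside 14.4%. For control-only peaks the shares were 68.6% and 21.3%. Kcnv1, a potassium channel subunit gene on chromosome 15, had 7 members beside 87 control-only peaks. Gria1, an AMPA receptor gene, had 6 members, from 43.6 to 444 kb away, beside 9 control-only peaks, and Grik2 had 5 beside 84. Axon guidance genes had 30 members, 1.96 per Mb (1.32 to 2.79), at 12 of 30 genes. Efnb2, an ephrin ligand gene, had 8 beside 42 control-only peaks, and the netrin receptor gene Unc5d had 7 beside 57. Nrp1, a semaphorin coreceptor gene, had 3 members and no control-only peak.

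Developmental transcription factor genes had 82 members in 24.1 Mb, 3.40 per Mb (2.71 to 4.22), at 33 of 91 genes (36.3%). That density was within its interval of the value for all coding genes, while their control-only density was 10.5 per Mb (9.28 to 11.9). Shared peaks were at 25.3% of these genes and control-only peaks at 40.7%. Over all coding genes with such sequence the shares were 18.2% for members, 14.4% for shared and 21.3% for control-only peaks. Irx1 had 10 members between 52.3 and 542 kb away, beside 32 control-only peaks, and Irx2 had 8 beside 16. Isl1 had 6 members, with 11 to 15 summit reads and 115 to 408 kb away, beside 6 shared peaks and 1 control-only peak. Growth factor and morphogen genes had 17 members, 2.11 per Mb (1.23 to 3.38), at 12 of 48 genes (25.0%). Shared peaks were at 27.1% of these genes and control-only peaks at 43.8%. In that list Wnt7b had 3 members with 37 to 41 summit reads and folds of 2.22 to 3.002, and Fgf20 and the neurotrophic factor gene Gdnf had 2 each, beside 0 and 5 control-only peaks.

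Ribosomal and housekeeping genes stand in gene-dense regions, so that only 14 of 46 had any sequence farther than 10 kb from genes, 0.367 Mb in all. That sequence held 7 members, 19.1 per Mb (7.67 to 39.3), and 1 control-only peak. Eef1a1, the translation elongation factor gene, Rpl11 and Rps24 had 2 members each, from 15.6 to 81.7 kb away, with 13 to 17 summit reads. All 3 genes had end peaks in both libraries. For comparison, gaps of 20 to 50 kb held 7.23 members per Mb. Receptor gene clusters were counted by symbol. The flanks of the 559 olfactory receptor genes with such sequence held 16 members in 9.67 Mb, 1.65 per Mb (0.946 to 2.69), and those of 305 vomeronasal receptor genes held 17, or 2.25 per Mb (1.31 to 3.60). The second interval includes the 3.24 per Mb of all coding genes. Shared peaks there were at 4.45 (3.22 to 5.99) and 5.69 per Mb (4.12 to 7.67). These receptor genes have near-identical copies, although the sequence counted lies farther than 10 kb from genes. Whether reads were split between copies, and the part of this in the densities, was not tested.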

How the data were processed

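H4K12la CUT&Tag peaks were taken from 1 control (NaCl) and 1 lactate (25 mM) library of Neuro2a cells, grouped by the treatment in the labels. The tools BWA, deepTools and MACS2 and the build mm10 stand in the submitters' processing notes. Their versions, the calling settings and any input library are not stated in the labels. The authors deposited 1 list per library with, for each peak, a fold (the ratio of summit pileup to local background, 1 added to each), −log10 p, −log10 q and a score of 10 times the −log10 q. The summit offset is also in the deposited lists. These are the authors' own values and describe peaks within a list.

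Summit reads and background were solved from fold and −log10 p, within 0.001 for 46560 of 46561 control and all 39727 lactate peaks. Gene positions (49550 genes, 21627 coding) and promoter sequences are those of RefSeq, GRCm38.p6. Distances run edge to edge. Shares have Clopper-Pearson intervals, counts Poisson intervals, and medians order-statistic intervals, all at 95%. The scripts were tested on simulated data. No genome sequence was used here, so no member's sequence is shown. Strand was matched for 79.9% of coding genes, so comparisons of gene sets by strand or by promoter CG were void and are left out. The CG counts given for 3 promoters are set only beside the entries the promoter table holds.

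Members and gene lists were chosen with earlier results of these data known. Named were flanking genes of the 10 highest-fold members, the 10 gaps with most members, 3 members at each extreme of distance, up to 3 genes per list, and the 5 chromosomes of highest and lowest density. Software was numpy 2.4.6, scipy 1.17.1, pandas 2.3.3 and matplotlib 3.10.9 under Python 3.11.15. With 1 library per group, no p-value was computed.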

Additional observations from a re-analysis of the deposited data

Results flagged for a closer look

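Chromosome Y lay outside the chromosomes analysed. By the same distance and overlap rule it held 11 lactate-only peaks and 6 control-only peaks, whereas on the other chromosomes control-only peaks were the more numerous. It is listed because the lactate value was above the control value in data that no comparison used. The whole chromosome had 41 lactate and 31 control lines, and no test of the difference was possible with 1 library per group.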

How the results depend on the processing

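Each value was recomputed under 8 alternatives. The number of members (3077) was 1505 with both lists held to a −log10 q of 3 or more, 205 at 5 or more in the lactate list, 1895 with a 20 kb limit and 5608 with coding genes only. In the remaining 4 settings it was within 1.5 times of 3077. The share of gene-distant lactate peaks without a control peak (54.0%) was 51.9% at −log10 q 3, 19.1% at 5, 42.8% when a control peak within 1 kb counted as shared, 63.8% when 50% of the peak had to overlap, 56.0% with a 5 kb limit, 51.7% with 20 kb and 56.0% with lists of equal length. Density (3.27 per Mb) was 1.60, 0.218, 2.59, 3.86, 3.79, 2.60 and 3.39 per Mb in these settings, in the same order, and 4.21 with coding genes only. Median spacing (324 kb) was 875, 6536, 448, 254, 241 and 486 kb in the first 6 and 140 kb with coding genes only. Median distance to the nearest gene (25.3 kb) was 23.0 kb at −log10 q 5, 17.5 and 44.1 kb with limits of 5 and 20 kb, and 51.6 kb with coding genes only. The last 3 follow from the limit or gene set itself, and fewer peaks give wider spacing. Other causes were not tested. No paired analysis was possible because each group has 1 library. The lowest callable pileup, 11 reads and higher where the local background is raised, limits what a missing control peak can show.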
